A study of Homo sapiens with 4 samples.

Results

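The glutathione transferases and the cytosolic sulfotransferases were followed in 22Rv1, an established human prostate carcinoma cell line, in 2 groups of 2 arrays. One group had received vehicle for 16 h and the other the herbal extract WCE at 10 µg/mL for the same time. Total RNA was hybridised to Illumina bead arrays as biotinylated cRNA. Members were all probes whose gene symbol in the platform annotation begins with GSTA, GSTM, GSTT, GSTP, GSTO, GSTZ or GSTK and a digit, or with MGST or SULT and a digit. These were 59 of the 47320 probes, for 35 of the 20046 named genes. They comprised 34 probes for 21 glutathione transferase genes of the soluble and mitochondrial classes, 6 probes for 3 microsomal transferases and 19 probes for 11 sulfotransferases. Arrays of a group carry replicate numbers, with nothing said of their cultures, so the p-values reflect spread among 4 hybridisations that may be technical.

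Glutathione transferases join the tripeptide glutathione to reactive, electron-poor compounds, which makes them water soluble and marks them for export. Cytosolic sulfotransferases move a sulfate group from the activated donor PAPS onto phenols, catecholamines and steroids. In prostate tissue both families act on carcinogens and hormones, and loss of GSTP1 through promoter methylation is a well-known event in prostate cancer. Several of these genes are classical targets of NRF2, which binds antioxidant response elements, and of the aryl hydrocarbon receptor, which binds xenobiotic response elements.

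No member probe changed past the threshold. Of 34 member probes tested, 0 had a limma adjusted p below 0.05 (Benjamini-Hochberg over all 21996 tested probes), against 0.846% of all tested probes (0.532% higher and 0.314% lower), and 0 to 1 did in 15 alternatives. At an unadjusted p below 0.05 there were 8, namely 3 higher and 5 lower with WCE, or 23.5% of the tested members against 17.9% of all tested probes (8.45% higher and 9.45% lower). The 3 were 2 probes of MGST1 and that of GSTA4, and the 5 were 1 probe of GSTM1, 2 of GSTM2 and 2 of SULT1A1. The log2 fold changes, WCE over vehicle, ran from -0.82 to 0.67 with a median of -0.08, where all tested probes had a median of 0.0047. Their standard errors ran from 0.16 to 0.25. For 29 of the 34 probes the 95% interval lay wholly within a 2-fold change either way, and for 11 within a 1.5-fold change. The smallest log2 change called anywhere on the array was 0.92 in size, which is more than any member estimate. Because 22Rv1 RNA was measured in bulk, fewer expressing cells and less RNA per cell cannot be told apart.

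Between 45.2% and 48.9% of all probes were detected on each, taking a detection p below 0.05, and 33 to 36 of the 59 member probes were. The vehicle arrays correlated at r = 0.994 over all probes and the WCE arrays at r = 0.992. Of all 47320 probes, 77 were over 2-fold apart between the vehicle arrays and 338 between the WCE arrays. Of the 34 tested member probes 0 were in either pair, a number that such small shares would give. The median difference between the vehicle arrays was 0.17 for tested members and 0.17 for all tested probes. Between the WCE arrays it was 0.18 and 0.21. Of the prostate epithelial markers, KRT8, KRT18, KRT19, EPCAM, CDH1, FOXA1, HOXB13, KLK2 and TMPRSS2 were detected on all 4 arrays and KLK3, the gene of prostate-specific antigen, on none. Of these 9 tested markers 0 rose and 1 fell with WCE, TMPRSS2 (log2 fold change -1.66, adjusted p = 0.00484, limma), and their median log2 fold change was -0.26, with 8 values below 0. The 5 tested stromal markers had 0 calls and a median of 0.34, and the 5 tested immune markers 0 calls and a median of 0.0069. The 3 tested liver markers had 0 calls and a median of 0.26. The part of these shifts in the member values was not tested. Among stromal and immune markers, COL1A2, COL3A1, PDGFRB, PTPRC and CD3E were detected on no array. By contrast VIM, LUM, COL1A1, ACTA2, CD14, CD68, LYZ, HLA-DRA and the liver marker ALB had a probe detected on all 4. Of the 8 liver markers 2 were detected on no array.

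Detection varied by family. All 3 microsomal genes and 15 of the 21 other transferase genes had a testable probe, but only 3 of the 11 sulfotransferase genes did, namely SULT1A1, SULT1A3 and SULT2B1. A probe was testable when detected on both arrays of at least 1 group, and 3 of the 34 met this in 1 group only. In all, 31 of the 59 probes (52.5%) were detected on all 4 arrays and 20 (33.9%) on none. Over all named probes of the array these shares were 49.7% and 38.6%. For the sulfotransferases they were 31.6% and 47.4%.

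**Figure D1:**
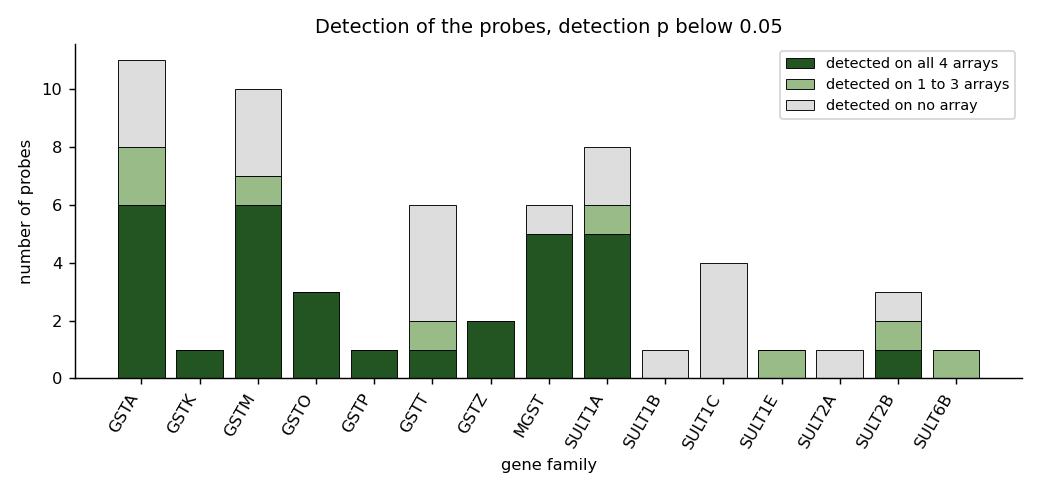
Number of probes (vertical axis) of each gene family (horizontal axis) detected on all 4 arrays, on 1 to 3 arrays or on no array, at a detection p below 0.05. The GSTO, GSTZ, GSTK and GSTP probes were detected on all 4 arrays, and the 4 SULT1C probes on none.

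No array detected SULT2A1, which sulfates dehydroepiandrosterone in liver and adrenal, SULT1B1, which acts on thyroid hormone, or SULT1C2, SULT1C3 and SULT1C4. The oestrogen sulfotransferase SULT1E1 and SULT1A4 were each detected on 1 vehicle array and no WCE array, and the little-studied SULT6B1 on 1 array of each group. Among the transferases GSTA5, the pseudogenes GSTA7P and GSTM2P1, GSTM5, GSTT2 and GSTT4 were detected on no array. SULT1A4 is a near-identical copy of SULT1A3, and GSTT2B of GSTT2, so their probes may not separate them. An undetected probe says that its signal did not stand above the negative control beads, not that the gene is silent.

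The mu class held the lowest adjusted p of all members. Its genes GSTM4, GSTM2, GSTM1, GSTM5 and GSTM3 follow each other on chromosome 1 with no other RefSeq gene between them, and their products conjugate epoxides and other electrophiles. The brighter GSTM1 probe (ILMN_2391861) had log2 signals of 9.74 and 9.69 with vehicle and 8.92 and 9.15 with WCE. Both WCE arrays lay below both vehicle arrays. The log2 fold change was -0.68 ± 0.17 (SE), with a 95% interval from -1.07 to -0.29 and an adjusted p of 0.112 (limma). This probe passed in 3 of 15 alternatives, with an adjusted p of 0.0441 without background correction, 0.0482 on the values the authors had processed and 0.04999 with a trended variance. GSTM1 is a gene deleted in many people, and whether 22Rv1 carries it is not known from the files. Its probes may also bind transcripts of close mu paralogs.

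GSTM2 had values below 0 at both of its probes. ILMN_2201580 had log2 signals of 8.93 and 8.75 with vehicle and 8.19 and 8.34 with WCE, a log2 fold change of -0.57 ± 0.17 (SE, adjusted p = 0.154, limma). Its dimmer probe ILMN_1713162, detected on both vehicle arrays and 1 WCE array, had 5.65 and 5.57 against 4.97 and 5.21, a log2 fold change of -0.52 ± 0.17 (adjusted p = 0.185, limma). The groups did not overlap at either probe. The dimmer probe entered the test only through the vehicle arrays, where it is high, and had -0.25 without background correction. The second tested GSTM1 probe (ILMN_1668134) had a log2 fold change of -0.39, with groups that did not overlap, and -0.23 without vehicle replicate 1. The remaining GSTM1 probe was detected on no array.

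The other mu genes gave no common direction. GSTM3, which is strongly expressed in brain and testis, had log2 signals of 6.18 and 6.24 with vehicle and 6.22 and 6.15 with WCE. The groups overlapped, and the log2 fold change was -0.02 with a 95% interval from -0.40 to 0.35. The probes of GSTM4 differed in sign, at -0.28 (ILMN_1716979) and 0.17 (ILMN_1651800), each with non-overlapping groups and adjusted p of 0.447 and 0.65 (limma). Whether the mu genes differ from each other in their response was not tested.

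The promoters of GSTM1 and GSTM2 are shown because these neighbouring genes had the lowest values of the class together. Both windows run from 250 bases before the transcription start to 50 after it, on the plus strand of GRCh38.p14 in RefSeq, at chr1:109687567-109687866 for GSTM1 and chr1:109667807-109668106 for GSTM2. Capitals mark the antioxidant response element core TGACNNNGC, searched on both strands together with the xenobiotic response element core GCGTG. GSTM1 holds 1 antioxidant core match, which begins 165 bases before the start, and GSTM2 holds neither motif in this window.
GSTM1: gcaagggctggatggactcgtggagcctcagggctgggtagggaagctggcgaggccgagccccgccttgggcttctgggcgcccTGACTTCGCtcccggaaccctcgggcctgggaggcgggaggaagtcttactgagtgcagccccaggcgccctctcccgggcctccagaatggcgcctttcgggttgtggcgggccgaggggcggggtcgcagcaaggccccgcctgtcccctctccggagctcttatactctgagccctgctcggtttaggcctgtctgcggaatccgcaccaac
GSTM2: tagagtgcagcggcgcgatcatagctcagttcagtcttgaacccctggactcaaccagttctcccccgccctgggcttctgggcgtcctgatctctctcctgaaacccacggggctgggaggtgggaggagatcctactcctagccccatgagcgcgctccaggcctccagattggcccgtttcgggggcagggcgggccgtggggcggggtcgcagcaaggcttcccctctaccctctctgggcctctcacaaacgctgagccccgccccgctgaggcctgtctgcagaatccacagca
The pair was identical at 70.6% of the columns of a global alignment. GSTM1 and the undetected GSTM5 were identical at 84.7%, and GSTM1 and GSTM3 at 44.7%. GSTM5 also holds 1 antioxidant core match.

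**Figure D2:**
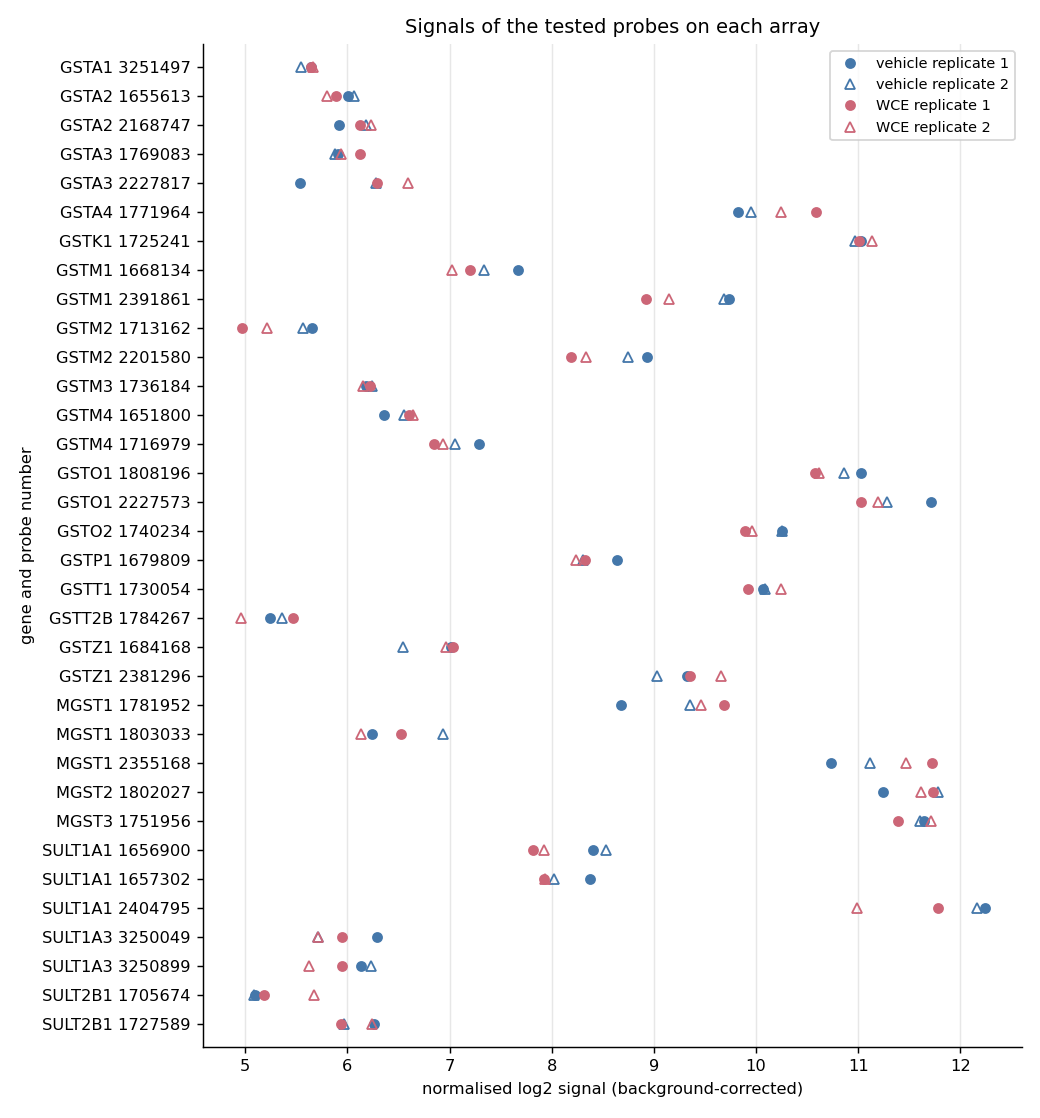
Normalised log2 signal (horizontal axis) of each of the 34 tested probes (vertical axis) on the 2 vehicle and the 2 WCE arrays, 1 symbol an array. Signals of different probes are not comparable with each other, and within a row the WCE arrays of the brighter GSTM1, GSTM2 and SULT1A1 probes lie to the left of the vehicle arrays and those of GSTA4 and of the brightest MGST1 probe to the right.

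Among the alpha class, whose liver members reduce lipid peroxides, GSTA4 had the lowest adjusted p. GSTA4 is specialised for the toxic aldehydes that lipid peroxidation releases. Its log2 signals were 9.83 and 9.95 with vehicle and 10.59 and 10.24 with WCE. The WCE arrays lay above the vehicle arrays, with a log2 fold change of 0.53 ± 0.19 (SE), a 95% interval from 0.11 to 0.95 and an adjusted p of 0.196 (limma). GSTA1 and GSTA2, the main alpha enzymes of liver, had detected but dim probes. The tested GSTA1 probe had a log2 fold change of 0.06, and those of GSTA2 had -0.19 (ILMN_1655613) and 0.13 (ILMN_2168747). GSTA3, which isomerises steroid precursors in steroid-producing tissue, had 0.53 (ILMN_2227817) and 0.13 (ILMN_1769083). The larger GSTA3 value rested on a vehicle array that stood apart, with 5.54 and 6.28 with vehicle against 6.29 and 6.59 with WCE. Leaving out vehicle replicate 1 gave 0.16, leaving out the other vehicle array 0.91, and omitting background correction 0.30. The alpha genes are close paralogs, so their dim probes may share signal.

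The tested pi, omega, theta, zeta and kappa probes had log2 fold changes from -0.39 to 0.33. GSTP1, the pi enzyme, was detected on all 4 arrays, at log2 signals of 8.64 and 8.30 with vehicle and 8.32 and 8.24 with WCE. The groups overlapped, and its log2 fold change was -0.19 with a 95% interval from -0.61 to 0.22. The omega enzymes, which reduce dehydroascorbate and arsenic compounds, lay lower with WCE at all 3 probes, with groups that did not overlap. Over all tested probes 24.7% lay lower in this way. GSTO1 had -0.39 (ILMN_2227573) and -0.35 (ILMN_1808196) and the nearby GSTO2 had -0.33, with adjusted p from 0.321 to 0.341 (limma). GSTO1 ILMN_2227573 was -0.17 without vehicle replicate 1, and with median scaling GSTO1 ILMN_1808196 was -0.22 and GSTO2 -0.21. GSTO2 had log2 signals of 10.26 and 10.26 with vehicle and 9.90 and 9.96 with WCE.

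GSTT1, of the theta class that acts on small halogenated compounds, had 10.07 and 10.09 with vehicle and 9.92 and 10.24 with WCE, so that the vehicle arrays lay between the WCE arrays. Its log2 fold change of 0.00045 had a 95% interval from -0.41 to 0.41. GSTT2B was detected on both vehicle arrays and 1 WCE array at 1 of its 3 probes, and had -0.09. GSTZ1, which isomerises maleylacetoacetate in tyrosine breakdown, had 0.33 (ILMN_2381296) and 0.22 (ILMN_1684168). The first was 0.17 without WCE replicate 2 and 0.18 without vehicle replicate 2. The mitochondrial and peroxisomal GSTK1 had 0.07, with a 95% interval from -0.31 to 0.44.

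GSTA4 and GSTP1 promoters are printed because each holds 1 match to the antioxidant core, in capitals, and their values differ in sign. The GSTA4 window is chr6:52995235-52995534 on the minus strand and the GSTP1 window chr11:67583562-67583861 on the plus strand (RefSeq, GRCh38.p14). The match in GSTA4 begins 9 bases before the start and that in GSTP1 66 bases before it, and that of GSTP1 but not that of GSTA4 is followed by an A, as in the longer form of the element. Neither window holds the xenobiotic core.
GSTA4: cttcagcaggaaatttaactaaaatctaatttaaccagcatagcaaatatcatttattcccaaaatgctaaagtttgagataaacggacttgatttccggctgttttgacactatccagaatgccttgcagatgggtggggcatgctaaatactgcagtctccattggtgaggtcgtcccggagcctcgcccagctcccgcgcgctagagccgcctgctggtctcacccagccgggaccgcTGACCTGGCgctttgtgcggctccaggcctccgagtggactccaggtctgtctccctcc
GSTP1: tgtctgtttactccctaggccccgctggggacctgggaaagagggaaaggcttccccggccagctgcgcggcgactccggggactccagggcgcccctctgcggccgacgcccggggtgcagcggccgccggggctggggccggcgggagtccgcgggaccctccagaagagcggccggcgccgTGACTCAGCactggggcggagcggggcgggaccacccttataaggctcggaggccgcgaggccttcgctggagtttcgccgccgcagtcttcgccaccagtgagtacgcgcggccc
A match is a description of letters, not a bound site. GSTP1 holds 36 CpG dinucleotides in these 300 bases and GSTA4 holds 14.

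The microsomal transferases are membrane proteins of the endoplasmic reticulum and mitochondria, unrelated in fold to the soluble enzymes. MGST1, which also reduces lipid hydroperoxides, had 3 tested probes of mixed sign. The brightest, ILMN_2355168, had log2 signals of 10.73 and 11.12 with vehicle and 11.73 and 11.47 with WCE. Both WCE arrays lay above both vehicle arrays, with a log2 fold change of 0.67 ± 0.20 (SE), a 95% interval from 0.23 to 1.12 and an adjusted p of 0.149 (limma). ILMN_1781952 had 8.67 and 9.36 against 9.69 and 9.46, a log2 fold change of 0.56 ± 0.24 (adjusted p = 0.264, limma). Without vehicle replicate 1 that value was 0.22, and without vehicle replicate 2 it was 0.90. The other tested probe, ILMN_1803033, had 6.24 and 6.94 against 6.52 and 6.13, a log2 fold change of -0.26 with overlapping groups. The remaining MGST1 probe was detected on no array.

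MGST2 and MGST3, which act on leukotrienes and lipid peroxides, had overlapping groups. MGST2 had log2 signals of 11.24 and 11.78 with vehicle and 11.73 and 11.61 with WCE, and MGST3 had 11.65 and 11.60 against 11.38 and 11.71. Their log2 fold changes were 0.16 and -0.08, with 95% intervals from -0.31 to 0.64 and from -0.49 to 0.33. With median scaling MGST3 had 0.030.

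MGST1 has 3 promoter windows in the RefSeq table, and the one at chr12:16346865-16347164 (plus strand, GRCh38.p14) is shown because it alone of the 3 holds an antioxidant core match, in capitals. The match begins at base 31 after the start.
MGST1: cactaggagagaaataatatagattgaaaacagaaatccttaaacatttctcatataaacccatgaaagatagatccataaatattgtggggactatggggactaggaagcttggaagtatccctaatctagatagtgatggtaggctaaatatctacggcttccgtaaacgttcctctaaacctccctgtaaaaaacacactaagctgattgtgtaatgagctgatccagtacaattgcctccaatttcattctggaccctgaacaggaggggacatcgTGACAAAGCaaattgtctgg
Which start site the probes report on is not known from the files.

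**Figure D3:**
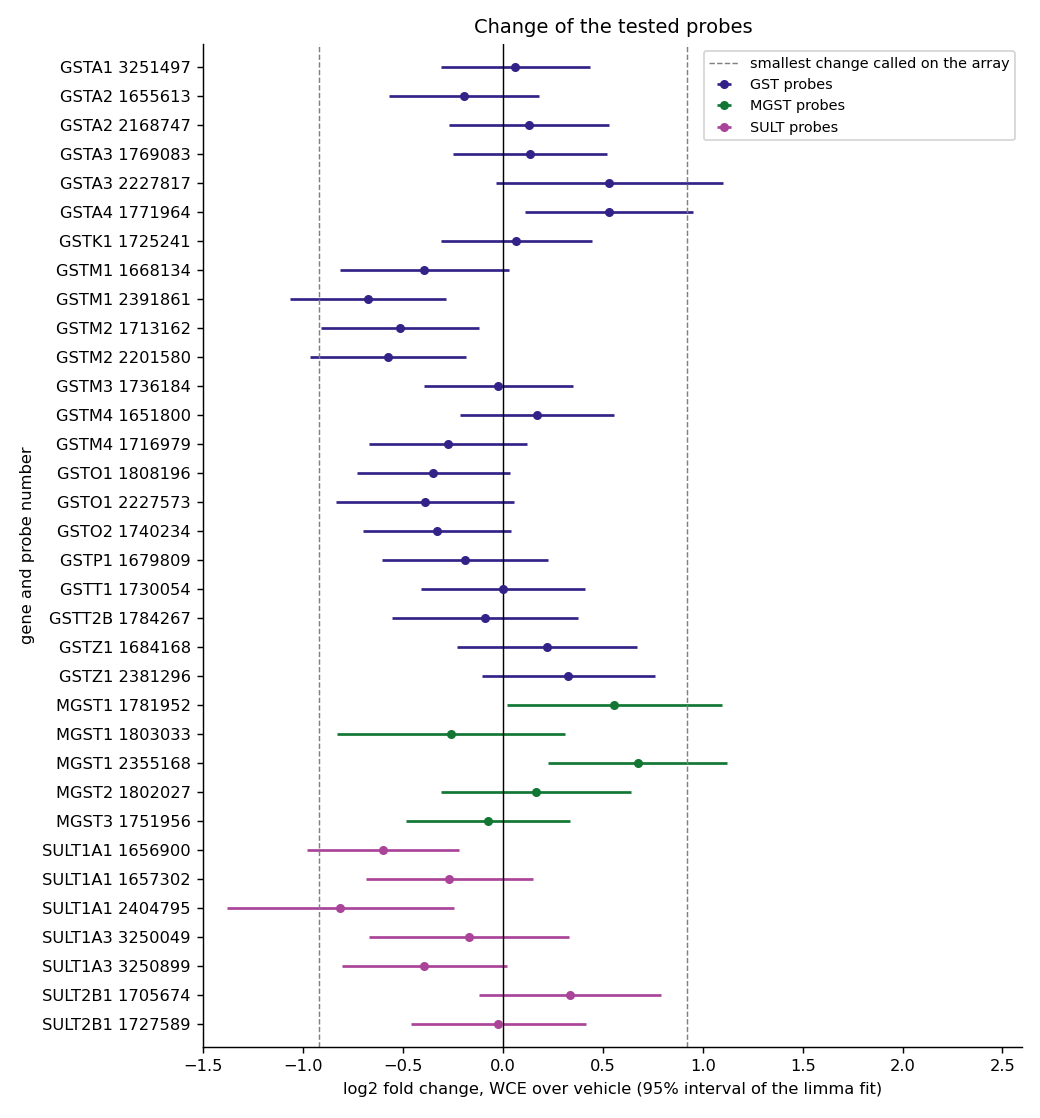
Log2 fold change, WCE over vehicle (horizontal axis), of each of the 34 tested probes (vertical axis), with 95% intervals from the limma fit and colours for the GST, MGST and SULT probes. Dashed lines mark 0.92 either way, the smallest change called on the array, and every member estimate lies between them.

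Of the sulfotransferases, SULT1A1, the phenol sulfotransferase that also acts on oestrogens and many drugs, lay lower with WCE at its 3 tested probes. The brightest, ILMN_2404795, had log2 signals of 12.24 and 12.16 with vehicle and 11.78 and 10.99 with WCE. Its raw bead signals were 4808 and 4368 with vehicle and 4028 and 2047 with WCE. The groups did not overlap, but the WCE arrays were far apart (SD 0.56, against 0.06 for vehicle). The log2 fold change was -0.82 ± 0.25 (SE), with a 95% interval from -1.38 to -0.25 and an adjusted p of 0.16 (limma). The value moved with a single array, being -0.42 without WCE replicate 2 (adjusted p = 0.376) and -1.21 without WCE replicate 1, where it passed (adjusted p = 0.0147, limma).

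A second SULT1A1 probe, ILMN_1656900, had closer replicates. Its log2 signals were 8.41 and 8.53 with vehicle and 7.81 and 7.93 with WCE, a log2 fold change of -0.60 ± 0.17 (SE, adjusted p = 0.138, limma). This value moved only between -0.66 and -0.54 as each array was left out, and it passed in none of its alternatives. The remaining tested probe, ILMN_1657302, had -0.27, with 8.38 and 8.02 against 7.93 and 7.94. It was -0.09 without vehicle replicate 1. Probes of SULT1A1 may also bind transcripts of other SULT1A genes. A further 2 SULT1A1 probes were detected on no array.

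SULT1A3, which sulfates dopamine and other catecholamines, had log2 fold changes of -0.39 (ILMN_3250899) and -0.17 (ILMN_3250049), the first with non-overlapping groups. That value was -0.23 without WCE replicate 2 and -0.21 without background correction. SULT2B1, which sulfates cholesterol and other hydroxysteroids and is a known sulfotransferase of prostate epithelium, had 6.26 and 5.97 with vehicle and 5.94 and 6.24 with WCE at ILMN_1727589. The arrays of both groups interleaved, and the log2 fold change was -0.02 with a 95% interval from -0.46 to 0.41. Its dimmer probe ILMN_1705674 was detected on both WCE arrays and 1 vehicle array and had 0.33. This probe entered the test only through the WCE arrays, and its value was 0.10 without WCE replicate 2 and 0.16 without background correction. Of the 7 tested sulfotransferase probes, 6 had a value below 0 and 1 above, where all tested probes had a median of 0.0047. The 6 were 3 probes of SULT1A1, 2 of SULT1A3 and 1 of SULT2B1, and SULT1A probes may share signal.

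**Figure D4:**
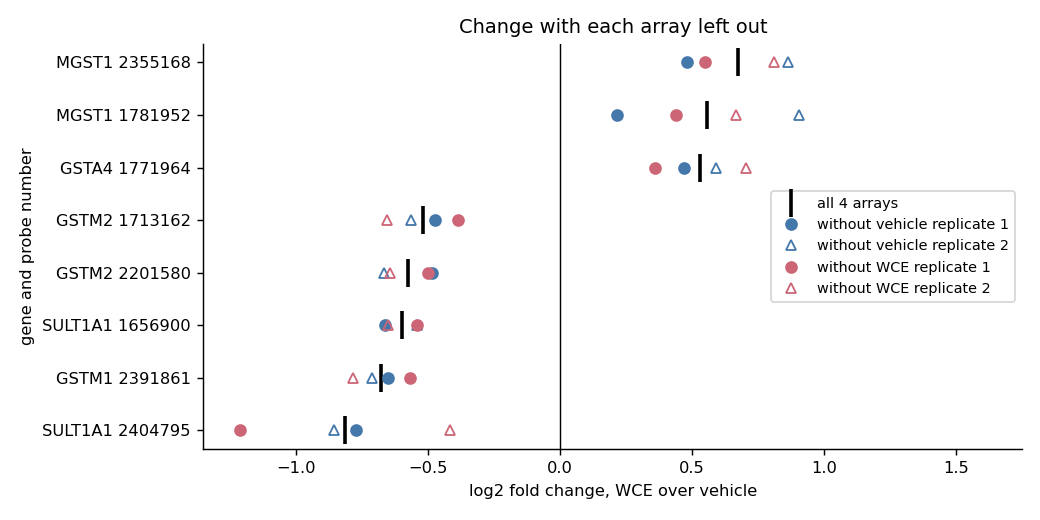
Log2 fold change, WCE over vehicle (horizontal axis), of the 8 member probes with an unadjusted p below 0.05 (vertical axis), over all 4 arrays (bars) and with each array left out in turn (symbols). Every value keeps its sign, and the brightest SULT1A1 probe moves furthest, from -1.21 to -0.42.

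Counted over the tested members, 22 of 34 probes (64.7%) had groups that did not overlap, 13 lower and 9 higher with WCE, beside 49.3% of all tested probes (24.7% lower and 24.5% higher). Taking all 59 member probes with no filter, 30 (50.8%) did not overlap, beside 40.4% of all 47320 probes. Members of a gene share a transcript and paralogs may share signal, so these probes are not independent of each other.

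Promoter windows were found for 28 of the 35 genes, 31 windows in all, and those of GSTT1, GSTT2, GSTT2B, MGST2, SULT1A1, GSTA7P and GSTM2P1 are not analysed here. The antioxidant core lay in 7 of the 31 windows (22.6%), beside 13.3% of the 35116 windows of the table. The 7 were those of GSTA4, GSTM1, GSTM5, GSTO1, GSTP1, SULT1C2 and 1 window of MGST1. The xenobiotic core lay in 8 of 31 (25.8%), beside 36.5% of the table. Of the genes with an antioxidant core window, GSTA4 had a value above 0. GSTM1, GSTO1 and GSTP1 had values below 0, and MGST1 had tested probes of both signs, none past the threshold. Whether the motif bears on these values was not tested.

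The genes around these enzymes were read from lists of the steps before and after conjugation, with 1 probe a gene, the brightest tested. Glutathione synthesis and recycling had 14 tested genes, of which 0 passed, with a median log2 fold change of 0.04 beside 0.0047 for all tested probes. GCLM, the modifier subunit of the enzyme that limits glutathione synthesis, had log2 signals of 9.28 and 9.01 with vehicle and 9.88 and 10.17 with WCE, a log2 fold change of 0.88 ± 0.19 (SE, adjusted p = 0.0756, limma). It passed in 8 of 15 alternatives, among them 1 probe per gene (adjusted p = 0.049), and its second tested probe had the opposite sign. GLRX, the glutaredoxin that removes glutathione from proteins, had 0.85 ± 0.18 (adjusted p = 0.0713, limma) and passed in 7 of 15. CHAC1, which degrades glutathione, and SLC7A11, the cystine carrier that feeds its synthesis, were detected on both WCE arrays and on neither vehicle array. Counted from the lowest detected vehicle signals, their signals were 1.47-fold and 1.42-fold higher with WCE. Neither passed (adjusted p = 0.117 and 0.226, limma). Both entered the test only through the WCE arrays, where they are high, so the sizes are uncertain. The log2 fold change of CHAC1 was 0.66, and 0.32 without background correction. That of SLC7A11 was 0.34 without background correction. The SLC7A11 value moved with a single array, since its log2 signals with WCE were 5.15 and 6.003. Its log2 fold change of 0.68 was 0.26 without WCE replicate 2 (adjusted p = 0.552) and 1.08 without WCE replicate 1, where it passed (adjusted p = 0.0214, limma). For the values of 1.47-fold and 1.42-fold each vehicle array was given its lowest detected signal, or the probe's own if that was higher. They hold for the main processing and are not lower limits across the alternatives.

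Export was the step with a called gene. Of 7 tested efflux genes 1 rose and 0 fell, beside 0.532% and 0.314% of all tested probes. Their median log2 fold change was 0.54, with 5 values above 0 and 2 below. ABCG2, the pump that exports sulfate conjugates and drugs, had log2 signals of 4.93 and 5.11 with vehicle, where 1 of 2 arrays detected it, and 7.62 and 7.07 with WCE. It rose by 2.32 ± 0.21 (log2, SE, adjusted p = 0.002, limma), and as it entered the test only through the WCE arrays, where it is high, the size is uncertain. The size was 1.37 without background correction, and the call was lost without a detection filter (adjusted p = 0.0667, limma). ABCC2, the canalicular exporter of glutathione conjugates, had 0.62, ABCC4, which exports steroid sulfates, had 0.54, and ABCC10 had 0.55, with adjusted p from 0.122 to 0.203 (limma). Without background correction ABCC10 was 0.29. ABCC1 is not analysed here.

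Sulfate supply had 12 tested genes and 0 calls, with a median of -0.03. The enzymes that make PAPS, the sulfate donor, had values of opposite sign. PAPSS2 had 5.85 and 5.61 with vehicle and 6.37 and 6.37 with WCE (log2 fold change 0.64 ± 0.17, SE, adjusted p = 0.129, limma). PAPSS1 had 11.60 and 11.86 against 11.39 and 11.13 (-0.47 ± 0.19, adjusted p = 0.237, limma). Neither pair of groups overlapped. PAPSS2 was 0.35 without background correction. The Golgi PAPS carrier SLC35B3 had 0.50, and 0.28 without WCE replicate 1, and the sulfur transferase TST had 0.28.

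Downstream processing of glutathione conjugates to mercapturates had 4 tested genes of 13 with a probe, and 0 calls. The gamma-glutamyltransferases GGT1, GGT5, GGT6 and GGT7 were detected on no array. The 4 tested genes, ACY1, KYAT3, KYAT1 and CNDP2, had log2 fold changes of -0.32, -0.12, -0.08 and 0.03. That of ACY1 was -0.17 without WCE replicate 1. Sulfatases, which remove sulfate, had 10 tested genes, 0 calls and a median of -0.05. ARSA, GALNS, ARSB and ARSG had -0.31, 0.27, -0.24 and -0.20. ARSA was -0.17 without vehicle replicate 1, and its other tested probe had the opposite sign. The steroid sulfatase STS was detected on no array.

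Golgi sulfotransferases, which sulfate sugars and proteins in place of small molecules, had 18 tested genes, 0 calls and a median of -0.04. HS6ST2, which sulfates heparan sulfate, had 0.94 ± 0.23 (SE, adjusted p = 0.101, limma) and was detected on 1 of the 2 vehicle arrays. It entered the test only through the WCE arrays, where it is high, so the size is uncertain. It passed with the replicate block (adjusted p = 0.00315, limma), where probes shared an SE of 0.233 whatever their own spread. Its value was 0.48 without background correction and 0.62 without vehicle replicate 1. GAL3ST1, which makes sulfatide, had -0.74, passed with the replicate block (adjusted p = 0.0324, limma) and was -0.45 without WCE replicate 1. CHST13, detected on 1 of the 2 WCE arrays, had -0.63, which was -0.31 without background correction and -0.42 without WCE replicate 1. Its size is uncertain too, as it entered the test only through the vehicle arrays, where it is high. The tyrosine sulfotransferase TPST2 had 0.43, and 0.28 without background correction. Other genes of the transferase fold or the microsomal superfamily had 9 tested, 0 calls and a median of 0.06. The chloride channel-like CLIC1, CLIC4 and CLIC3 had 0.56, 0.56 and -0.53. CLIC1 passed with a trended variance (adjusted p = 0.0414, limma), and without WCE replicate 1 CLIC4 was 0.31 and CLIC3 -0.29. GSTCD, a little-studied gene with a transferase C-terminal domain, had -0.47, which rested on WCE replicate 2, since its log2 signals were 6.60 and 6.43 with vehicle and 6.52 and 5.57 with WCE. Without that array it was 0.01, and without WCE replicate 1 it was -0.93 and passed (adjusted p = 0.039, limma).

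Regulators of conjugation genes had 11 tested, 0 calls and a median of 0.22. The vitamin D receptor VDR had 0.74 ± 0.16 (SE, adjusted p = 0.0825, limma), and 0.36 without background correction. It passed with the replicate block and its shared SE (adjusted p = 0.0329, limma). PPARA had 0.54, and 0.27 without background correction, and NFE2L1, a relative of NRF2, had 0.46. AHR, the aryl hydrocarbon receptor, had 12.44 and 12.44 with vehicle and 12.21 and 11.66 with WCE, a log2 fold change of -0.50 ± 0.21 (adjusted p = 0.257, limma), and its second tested probe had the opposite sign. Leaving out WCE replicate 2 gave -0.22 for AHR, and leaving out the other WCE array gave -0.79. In a description over these 8 lists, 1 of 85 gene entries was called, beside 0.846% of all tested probes.

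**Figure D5:**
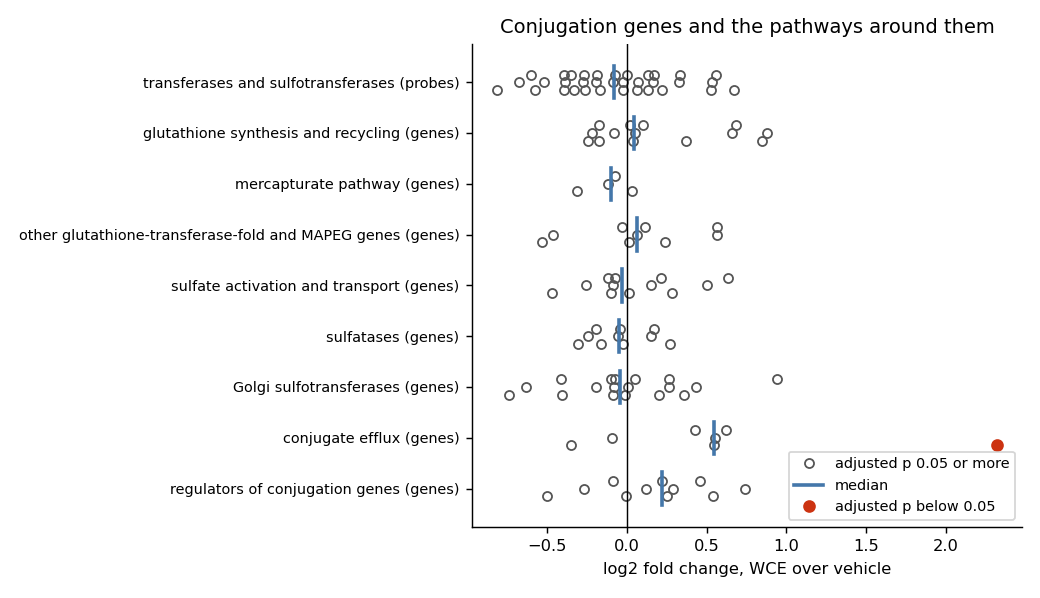
Log2 fold change, WCE over vehicle (horizontal axis), of the 34 tested member probes and of the tested genes of 8 lists around them (vertical axis), with blue bars at each median. ABCG2 in the efflux list, at 2.32, is the filled point with an adjusted p below 0.05.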

How the data were processed

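Bead intensities were deposited on a linear scale, and from their values they had no background subtracted and no normalization. Each has a deposited detection p-value, per the file headers. The authors also deposited processed log2 values, made by a method that the sources used here do not give. They kept the ranks of the raw signals (Spearman's rho 1 on each array) and differed by at most 0.136 from log2 raw signals after quantile normalization. Their median was 6.40 on each array, so genes were not centred.

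Raw signals were corrected with normexp (controls inferred from detection p-values, offset 16), quantile normalized and taken to log2 in limma 3.58.1 under R 4.3.3. Of 47320 probes, 30112 had 1 symbol, 8 had several and were left unnamed, and 17200 had none. By gene number 0 symbols needed updating. A probe entered the test when both arrays of a group gave a detection p-value below 0.05, which held for 21996 probes. These were tested by lmFit and eBayes (2 residual and 6.79 prior degrees of freedom), adjusted by Benjamini-Hochberg at 0.05. In all 186 passed, 117 higher and 69 lower. The probe was the unit because several members are paralogs. Intervals are not adjusted for the number of probes. An exact permutation test of 2 against 2 cannot give a two-sided p below 0.333. The number of arrays limits the precision. Members and gene lists were chosen with earlier results of these data known. Named genes were every member and, from each list, the 4 tested genes with the smallest p and any past the threshold. The fit was also run on simulated data.

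Alternatives changed the background step (none, or an offset of 50) and the scaling (by medians, by cyclic loess, or the authors' values). They also changed the filter (none, or a detection p-value under 0.01 on each of the 4 arrays). Others changed the unit (1 probe per gene) and the variance (trended and robust). The design was changed by a replicate block, a crossed replicate block added after seeing the data, or each array left out.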

Additional observations from a re-analysis of the deposited data

How the results depend on the processing

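The count of member probes past the threshold was 0, and 1 without background correction, with the authors' values and with a trended variance (GSTM1 each time) and 1 with the replicate block (SULT1A1, adjusted p = 0.0152). It was 0 to 1 with an array left out, and 0 in the other alternatives. At an unadjusted p below 0.05 the 15 alternatives gave 4 to 14. Of 493 alternative values for the 34 member probes, 473 kept their direction and side of the threshold, 5 newly passed and 15 changed sign, and the probes that changed sign had values of at most 0.261 in size. Over all probes 186 passed, against 404 without background correction, 397 with an offset of 50, 101 with median scaling, 419 with the authors' values, 21 with no filter, 351 with the strict filter and 470 with a trended variance. With an array left out the count was 40 to 1107, the higher without WCE replicate 1. The cause was not tested. Of the calls 62.9% were higher, against 77.2% with median scaling, 95.2% with no filter, 38.3% with the replicate block and 29.0% without WCE replicate 1. The replicate block gave 1188 calls. There the named probes shared an SE of 0.233, so passing depended on the size of the log2 fold change alone. This holds for the passes of SULT1A1, GCLM, GLRX, HS6ST2, GAL3ST1 and VDR in that design. Same-numbered arrays share only a number, and their deviations correlated at -0.119. A crossed pairing, chosen after seeing the data, gave 74 calls. Probes below detection on any array, ABCG2 among them, have no value with the strict filter, and dimmer probes of a gene none with 1 probe per gene.

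Sign changes outside the left-out arrays were those of GSTT1 with cyclic loess (-0.0022), and of MGST3 (0.0302), SULT2B1 (0.00015) and KYAT1 (0.0052) with median scaling. With an array left out, log2 fold changes spanned 0 for GSTM3 (-0.058 to 0.0101), GSTT1 (-0.16 to 0.16), GSTT2B (-0.34 to 0.17), GSTZ1 (-0.017 to 0.46), MGST1 ILMN_1803033 (-0.61 to 0.088), MGST2 (-0.10 to 0.43), MGST3 (-0.24 to 0.083), SULT1A3 (-0.46 to 0.12), SULT2B1 (-0.18 to 0.13), KYAT1 (-0.28 to 0.14), CNDP2 (-0.0382 to 0.1001) and GSTCD (-0.93 to 0.012). Searching the longer element, with an A after the core, gave 9.68% of member windows and 3.18% of all windows. Signals near the negative controls limit what the dim GSTA, GSTT2B and SULT2B1 probes can show.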
